A study of Homo sapiens with 4 samples.

Results

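The genes described here are 41 components of autophagy, from the kinase complex that starts it to the cargo receptors and the transcription factors that control its genes. They were chosen by name, as the probe sets whose platform symbol is one of the 41. Earlier results of these data were known at that choice. All 41 were measured, each by 1 probe set, among the 24241 genes with a symbol in a table of 25582 probe sets. The cells were MOLM-14, a human line established from acute myeloid leukaemia, and their transcripts were read on 4 whole-transcript arrays from Affymetrix. The GSK621 group (n = 2) was exposed for 6 h to 30 µM GSK621, a compound that activates AMPK, the kinase that senses low cellular energy. The rapamycin group (n = 2) was given 10 nM rapamycin, which inhibits the growth-promoting kinase complex mTORC1, for 12 h ahead of that same exposure. Both groups thus carry GSK621, cells without it were not analysed here, and every difference below is rapamycin then GSK621 minus GSK621 alone. A part of rapamycin alone and a changed response to GSK621 cannot be told apart, and neither autophagic flux nor protein was measured.

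Autophagy encloses cytoplasm, damaged organelles or protein aggregates in a newly formed membrane and delivers them to the lysosome for breakdown. AMPK and mTORC1 act on it in opposite ways: AMPK can phosphorylate the ULK1 kinase in ways that favour initiation, and active mTORC1 phosphorylates ULK1 and ATG13 to restrain it. mTORC1 also holds the transcription factor TFEB in the cytosol, from where it moves to the nucleus and turns on lysosomal and autophagy genes when mTORC1 is inhibited. These controls act on proteins, whereas the arrays read transcripts.

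Of the 41 genes, WIPI1 stood out with a level 1.80-fold lower after rapamycin, a log2 difference of −0.85 ± 0.09 (SE, n = 2 per group). Here and below, ± gives the SE of the limma fit, which draws on the variance of all genes besides that of the gene itself. WIPI1 binds phosphatidylinositol 3-phosphate on the growing autophagosome membrane. The other 40 had log2 differences from −0.27 to 0.32. The median over the 41 was −0.01, with 20 genes higher and 21 lower, beside a median of 0.00 over all genes tested. In size, the median difference was 0.07 among the 41, 0.11 over all genes and 0.11 over genes above the median level, a group to which 36 of the 41 belong. No gene passed the test after adjustment: with limma over all genes, 0 of 24241 (0%) had an adjusted p under 0.05, and the smallest among the 41 was 0.242, for WIPI1. At an unadjusted p under 0.05, 2 of the 41 were higher (ATG7 and ATG2B) and 2 lower (WIPI1 and ATG12), against 8.51% of all genes, 4.31% higher and 4.2% lower. The count of 4 in 41 is near that background. Both rapamycin arrays exceeded both GSK621 arrays for 9 of the 41, against 20.5% of all genes, and both lay under them for 10, against 18.9%. With a variance trend and robust estimation, limma called 74 genes in all, of which 1 was a member, WIPI1 (adjusted p = 0.0207), and without moderation it called 1 gene and 0 members.

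**Figure D1:**
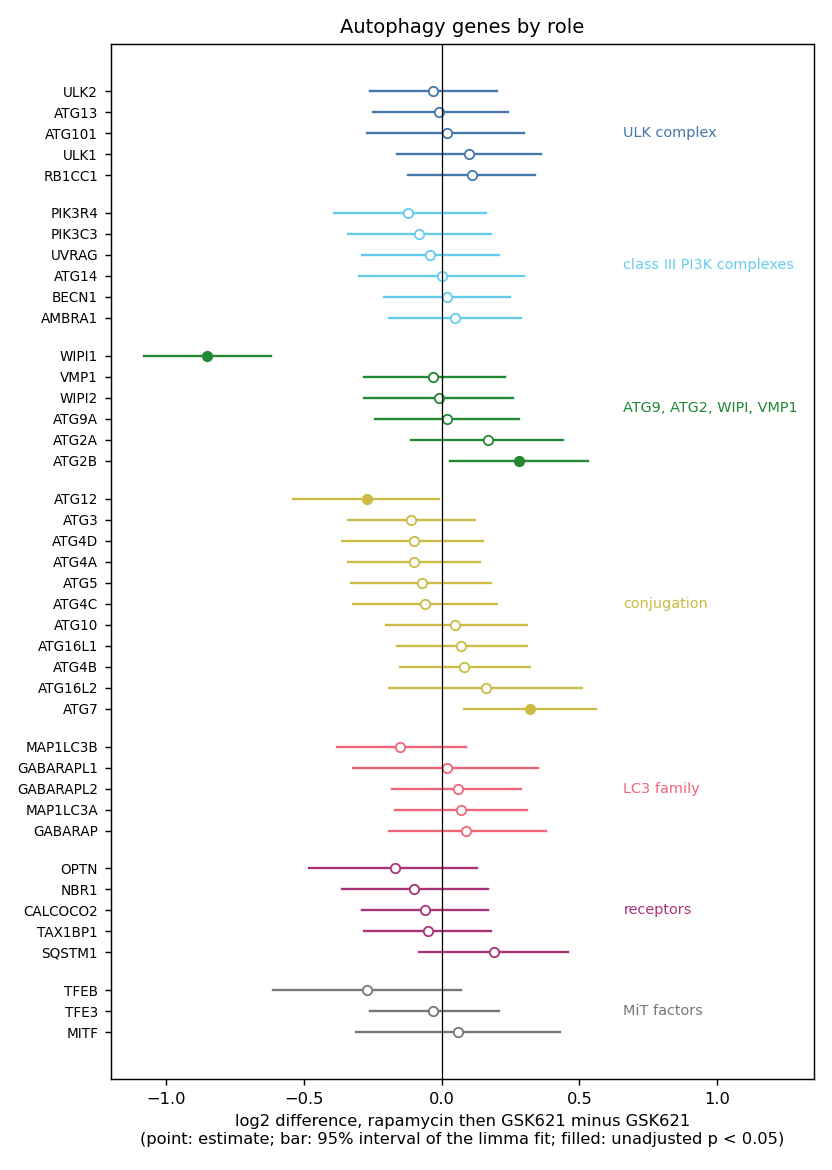
Log2 difference of each of the 41 genes (horizontal axis, rapamycin then GSK621 minus GSK621) with its 95% interval from limma, grouped by role; filled points had an unadjusted p under 0.05. WIPI1 lies at −0.85, and the other 40 points lie between −0.27 and 0.32.

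The precision behind these values depends on the number of arrays, on the spread between them and on the variance that the fit shares across genes. The median SE over the 41 was 0.10, and the 95% interval of the difference lay within 1.5-fold in either direction for 39 of them, against 82.5% of all genes. The exceptions were WIPI1 and TFEB. The 2 arrays of a group differed by a median of 0.0731 for these genes in the GSK621 group and 0.0675 in the rapamycin group, where the values over all genes were 0.126 and 0.120. Of the cell identity markers, 8 of 9 measured myeloid genes lay above the median level of all genes, among them FLT3, LYZ, CEBPA and MEIS1, and CD14 lay below it. The same held for 1 of 4 T cell genes, 2 of 3 B cell genes (CD79A and PAX5) and 1 of 3 erythroid and megakaryocyte genes. With limma, 1 of 9 myeloid genes and 1 of 3 erythroid and megakaryocyte genes had an unadjusted p under 0.05. The share over all genes was 8.51%. FLT3, a receptor kinase of myeloid progenitors, had a log2 difference of 0.34 ± 0.09. The platelet factor PF4 had −0.33 ± 0.10, and both were without overlap. Myeloid genes went both ways, 5 higher and 4 lower, with MPO at −0.23 ± 0.10. So did the erythroid and megakaryocyte genes, 1 higher (HBB, 0.23 ± 0.14) and 2 lower. The part of marker genes in the members' values was not tested. Without detection calls, whether a dim probe set was above background is unknown.

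**Figure D2:**
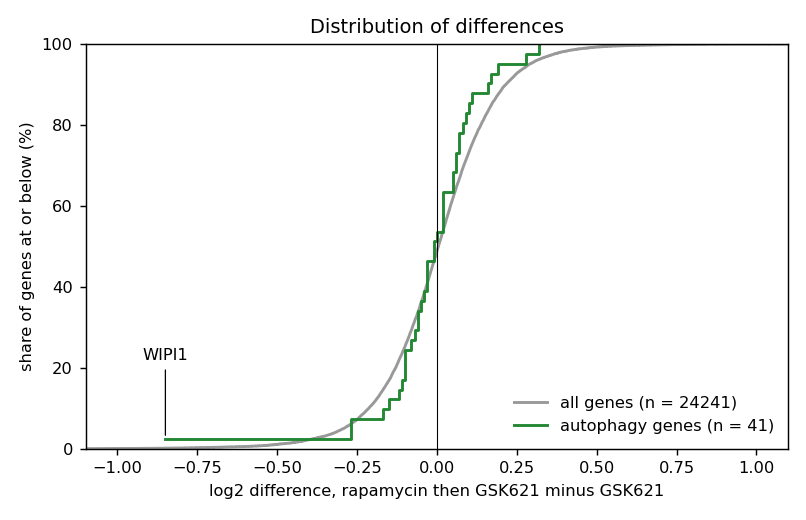
Cumulative share of genes (vertical axis, %) by log2 difference (horizontal axis) for all 24241 genes and for the 41 autophagy genes. Apart from WIPI1 at −0.85, the curve of the 41 is steeper around 0 than that of all genes, with a median size of 0.07 against 0.11.

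The promoters of 3 genes are shown because they belong to the member with the largest lower value, to the one with the largest higher value, and to the member that holds the binding letters of the TFEB family more than once. The transcription factors TFEB, TFE3 and MITF bind the letters CACGTG, the core of an E-box, and the longer CLEAR element found at lysosomal genes contains it. The sequences are RefSeq promoters of GRCh38.p14, from 250 bases before to 50 bases after the transcription start, read 5′ to 3′ on the strand of the gene, with CACGTG in capitals. WIPI1 lies on the minus strand (chr17:68457447-68457746), ATG7 on the plus strand (chr3:11272147-11272446) and ATG3 on the minus strand (chr3:112561913-112562212).
WIPI1: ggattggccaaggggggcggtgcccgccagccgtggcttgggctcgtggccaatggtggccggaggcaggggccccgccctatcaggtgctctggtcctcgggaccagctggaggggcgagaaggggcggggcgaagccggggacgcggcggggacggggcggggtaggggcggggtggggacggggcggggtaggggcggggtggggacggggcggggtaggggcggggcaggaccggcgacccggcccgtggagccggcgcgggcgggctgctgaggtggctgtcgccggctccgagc
ATG7: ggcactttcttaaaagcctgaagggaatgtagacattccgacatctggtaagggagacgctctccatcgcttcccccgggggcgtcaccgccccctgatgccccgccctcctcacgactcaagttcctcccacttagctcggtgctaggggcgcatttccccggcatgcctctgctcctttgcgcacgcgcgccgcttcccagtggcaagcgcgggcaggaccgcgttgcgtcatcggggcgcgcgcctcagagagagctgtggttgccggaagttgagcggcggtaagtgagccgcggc
ATG3: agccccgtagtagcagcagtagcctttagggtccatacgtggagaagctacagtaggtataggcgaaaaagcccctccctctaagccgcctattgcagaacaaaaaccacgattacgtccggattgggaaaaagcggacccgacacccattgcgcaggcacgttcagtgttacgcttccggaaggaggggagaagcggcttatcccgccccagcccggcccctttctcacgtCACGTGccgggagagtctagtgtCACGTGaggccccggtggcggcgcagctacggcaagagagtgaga
A promoter was given for 37 of the 41 genes, and 9 of these had several. CACGTG, which reads the same on both strands, was found in 2 of the 37, ATG3 and ATG14, which is 5.41% against 10.3% of the 17283 tested genes with a promoter. With T before and A after it, as TCACGTGA, it was found in ATG3 alone, 2.7% against 1.56%. These letters are not in the windows shown for WIPI1 and ATG7. ATG3, with a match at −18 and another at 6 from the start, had a log2 difference of −0.11 ± 0.09, and ATG14, with its match at −21, had 0.00 ± 0.12.

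The ULK complex receives the signals of AMPK and mTORC1 and starts autophagy. Its scaffold RB1CC1, also named FIP200, had the smallest p of its 5 members. RB1CC1 measured 8.81 and 8.79 on the log2 scale after GSK621 and 8.92 and 8.90 after rapamycin and GSK621. The groups did not overlap, yet the log2 difference was 0.11 ± 0.09 (unadjusted p = 0.283, adjusted p = 0.784 with limma). ULK1, the kinase itself, had a difference of 0.10 ± 0.10 with overlapping arrays (6.46 and 6.31 against 6.52 and 6.46). Its relative ULK2 had −0.03 ± 0.09, on a probe set below the median level. The regulatory subunits ATG13 and ATG101 had −0.01 ± 0.10 and 0.02 ± 0.11, and both turned sign when single arrays were left out. Of the 5 transcripts of this complex 0 had an unadjusted p under 0.05, against 8.51% of all genes. Each 95% interval stayed within 1.5-fold, as did those of 82.5% of all genes.

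The class III phosphatidylinositol 3-kinase complexes make the lipid that WIPI proteins bind. Their 6 transcripts had differences from −0.12 to 0.05, and 0 had an unadjusted p under 0.05, against 8.51% of all genes. The regulatory subunit PIK3R4, also named VPS15, had the smallest p, with 8.10 and 7.91 after GSK621 against 7.86 and 7.92 after rapamycin and GSK621. Those groups overlapped, and the difference was −0.12 ± 0.11 (unadjusted p = 0.333). The catalytic subunit PIK3C3 had −0.08 ± 0.10. BECN1, the core subunit shared by the complexes, measured 8.56 and 8.58 against 8.59 and 8.59, a difference of 0.02 ± 0.09. ATG14, which directs the complex to autophagosome formation, had 0.00 ± 0.12, and UVRAG, the subunit of the endosomal form, had −0.04 ± 0.10. AMBRA1, a BECN1-binding regulator, had 0.05 ± 0.10.

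Lipid supply to the growing membrane held both the lowest value of the 41 and 1 of the higher ones. WIPI1 (gene ID 55062) measured 8.00 and 8.01 after GSK621 and 7.14 and 7.17 after rapamycin and GSK621. The GSK621 arrays both lay above the rapamycin arrays, with a gap of 0.83 between the nearest arrays and at most 0.03 between arrays of 1 group. Its unadjusted p was 0.000162 with limma, with a 95% interval of −1.08 to −0.62. Leaving out each array in turn moved the WIPI1 difference between −0.86 and −0.83 and its unadjusted p between 0.00137 and 0.00185. WIPI1 was the 1 member with an unadjusted p under 0.05 in each of these 4 repeats.

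The other WIPI proteins did not share that value. WIPI2, which binds the same lipid and recruits ATG16L1, measured 7.07 and 6.90 against 7.00 and 6.94, a log2 difference of −0.01 ± 0.11 with a 95% interval of −0.28 to 0.26. The WIPI1 interval does not reach that of WIPI2, though the difference between the genes was not itself tested. The remaining relatives, fixed in a list outside the 41, were WDR45B (WIPI3) at −0.23 ± 0.09 and WDR45 (WIPI4) at 0.34 ± 0.10. WDR45 measured 5.92 and 5.86 against 6.29 and 6.18, so that its rapamycin arrays lay above both GSK621 arrays. WDR45B was named once its value was known, and it lost its unadjusted p under 0.05 when any array was left out.

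ATG2B, a lipid transfer protein that feeds the growing membrane from the endoplasmic reticulum, measured 7.06 and 7.18 after GSK621 and 7.37 and 7.43 after rapamycin and GSK621. The groups did not overlap, with a log2 difference of 0.28 ± 0.10 (unadjusted p = 0.0339, adjusted p = 0.568). Its relative ATG2A had 0.17 ± 0.11, also without overlap, which came to 0.07 without GSK621 replicate 1 and 0.26 without GSK621 replicate 2. The lipid scramblases ATG9A and VMP1 had 0.02 ± 0.10 and −0.03 ± 0.10, both with overlapping arrays. The VMP1 locus also gives rise to the precursor of a microRNA, so its probe set may read more than 1 kind of transcript.

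**Figure D3:**
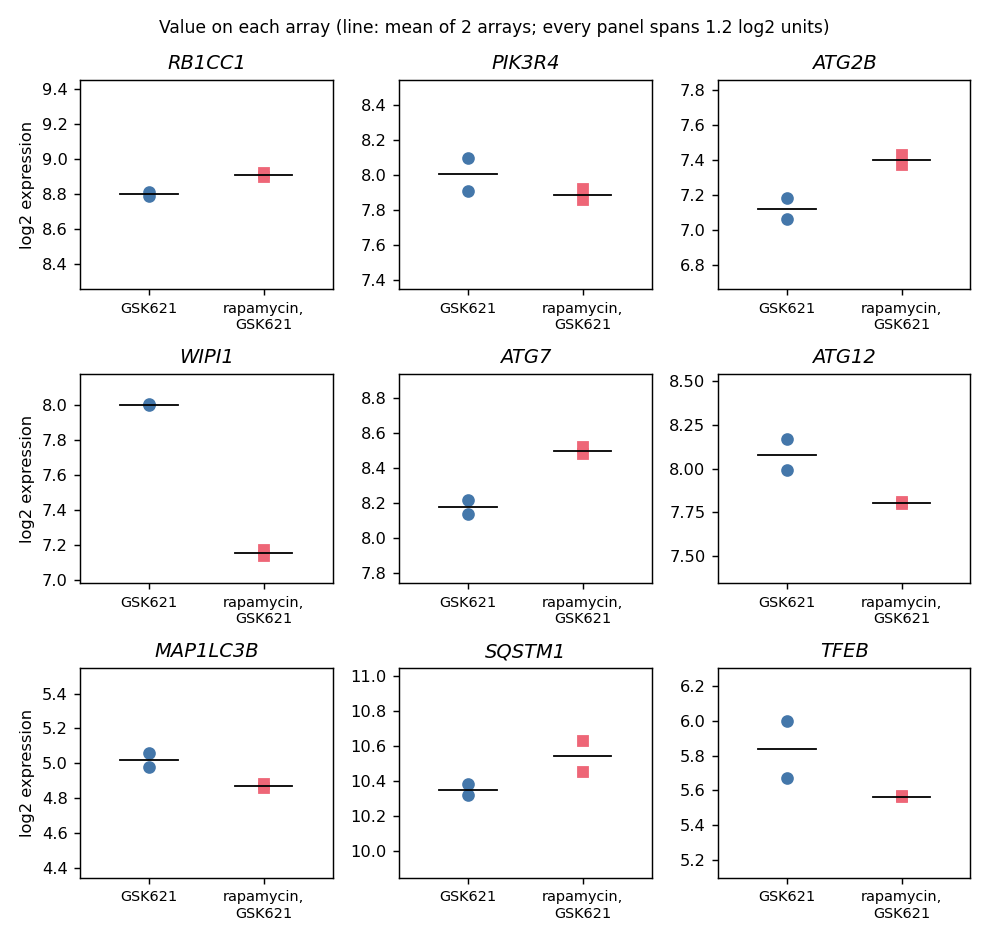
Log2 expression on each array (vertical axis, 1.2 log2 units in every panel) for the members with an unadjusted p under 0.05 and the member with the smallest p in each role; circles are GSK621 arrays, squares are rapamycin then GSK621 arrays, lines are means of 2. The groups are apart by 0.83 for WIPI1, by 0.27 for ATG7, by 0.19 for ATG2B and by 0.18 for ATG12, and they overlap for PIK3R4.

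The conjugation machinery attaches LC3 and its relatives to membrane lipid. ATG7, the E1-like enzyme that activates both ATG12 and LC3, had the highest value of the 41. ATG7 measured 8.14 and 8.22 after GSK621 and 8.52 and 8.48 after rapamycin and GSK621, 1.25-fold higher. Both rapamycin arrays lay above both GSK621 arrays, and the log2 difference was 0.32 ± 0.09 (unadjusted p = 0.0171, adjusted p = 0.545). ATG12, the ubiquitin-like protein that ATG7 activates, went the other way. ATG12 measured 7.99 and 8.17 against 7.80 and 7.81, a difference of −0.27 ± 0.11 without overlap (unadjusted p = 0.0469, adjusted p = 0.585). Leaving out GSK621 replicate 1 brought ATG12 to −0.37 with an unadjusted p of 0.0330, and each of the other 3 arrays left out took that p above 0.05, with 0.198 (at −0.18) for GSK621 replicate 2 and 0.137 and 0.123 for the rapamycin arrays. With the replicate block it was 0.0519. With 1 array left out, the unadjusted p of ATG7 and ATG2B stayed under 0.05 when that was GSK621 replicate 2 (0.0372 and 0.0422). Without any 1 of the other 3 arrays it ran from 0.0551 to 0.0742 for ATG7 and from 0.0816 to 0.139 for ATG2B.

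The other 9 conjugation genes lay between −0.11 and 0.16. The E2-like enzymes ATG3 and ATG10 had −0.11 ± 0.09 and 0.05 ± 0.10. ATG5, the partner to which ATG12 is joined, measured 8.40 on both GSK621 arrays against 8.26 and 8.39, a difference of −0.07 ± 0.10. ATG16L1, which carries the ATG12 and ATG5 conjugate to the membrane, had 0.07 ± 0.09. Its relative ATG16L2 had 0.16 ± 0.14, which rested on replicate 1 of rapamycin then GSK621 (7.24, where the other arrays lay at 6.89, 6.93 and 6.89) and came to −0.01 without it. The ATG4 proteases prime LC3 and release it again, and they had differences of −0.10 ± 0.10 for ATG4A, 0.08 ± 0.09 for ATG4B, −0.06 ± 0.10 for ATG4C and −0.10 ± 0.10 for ATG4D. Their values lay on both sides of 0 and within 0.10 of it.

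The LC3 family proteins are the ubiquitin-like tags that mark autophagosomes and hold cargo receptors. Of its 5 members 0 had an unadjusted p under 0.05, against 8.51% of all genes, and differences ran from −0.15 to 0.09. MAP1LC3B, the member most used as an autophagosome marker, measured 4.98 and 5.06 after GSK621 and 4.86 and 4.88 after rapamycin and GSK621. The groups did not overlap, and the log2 difference was −0.15 ± 0.09 (unadjusted p = 0.175). Its near-identical copy MAP1LC3B2 had 0.14 ± 0.14 with overlapping arrays, and how the probes of these genes were assigned is not given in the sources used here, so both values are uncertain. GABARAP, measured at 10.55 and 10.76 against 10.72 and 10.77, had 0.09 ± 0.11. GABARAPL2 had 0.06 ± 0.09 and MAP1LC3A 0.07 ± 0.10. GABARAPL1 had 0.02 ± 0.13, with 4.78 and 5.00 against 5.02 and 4.80, so that arrays of 1 group differed by 0.22. The probe sets of MAP1LC3A, MAP1LC3B and GABARAPL1 lay below the median level.

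Cargo receptors bind ubiquitin-marked cargo and the LC3 family at the same time. SQSTM1, also named p62, was the 1 receptor of 5 with a higher value. SQSTM1 measured 10.32 and 10.38 after GSK621 and 10.63 and 10.45 after rapamycin and GSK621. The groups did not overlap, but the rapamycin arrays differed from each other by nearly as much as the groups did. The log2 difference was 0.19 ± 0.11 (unadjusted p = 0.132, adjusted p = 0.686), and it ran from 0.10 without replicate 1 of rapamycin then GSK621 to 0.28 without replicate 2. The other 4 lay below 0. OPTN had −0.17 ± 0.12, NBR1 −0.10 ± 0.10, CALCOCO2 (NDP52) −0.06 ± 0.09 and TAX1BP1 −0.05 ± 0.09. CALCOCO2 and TAX1BP1 did not overlap between the groups, with gaps of 0.03 each, and the arrays of OPTN and NBR1 overlapped.

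TFEB, TFE3 and MITF are the transcription factors that switch on lysosome and autophagy genes. TFEB measured 6.00 and 5.67 after GSK621 and 5.57 and 5.56 after rapamycin and GSK621. The groups did not overlap, and the log2 difference was −0.27 ± 0.14 (unadjusted p = 0.0964, adjusted p = 0.654), with a 95% interval of −0.61 to 0.07. That value rested on GSK621 replicate 1: without it TFEB came to −0.11, and without GSK621 replicate 2 to −0.44. TFE3 had −0.03 ± 0.09. MITF, on a probe set below the median level, had 0.06 ± 0.15 with arrays at 4.60 and 4.44 against 4.75 and 4.41.

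Other genes of the pathway were read as lists, chosen like the 41 with earlier results of these data known. Over all genes 0 of their members had an adjusted p under 0.05, and the counts below are of unadjusted p under 0.05, with 4.31% of all genes higher and 4.2% lower as background. Of the list genes so counted, BNIP3, RETREG1 and TP53INP2 stayed under 0.05 whichever array was left out, and each of the others went above it without at least 1 array. Of 20 measured genes of nucleation, membrane formation and regulation, 4 were lower and 1, WDR45, was higher, with a list median of −0.09. TP53INP2, which brings LC3 out of the nucleus, measured 6.92 and 7.05 after GSK621 and 6.44 and 6.54 after rapamycin and GSK621, a log2 difference of −0.50 ± 0.10 without overlap (unadjusted p = 0.00410, adjusted p = 0.436). Its relative TP53INP1 had −0.43 ± 0.12, and TMEM41B, a lipid scramblase that works with VMP1, had −0.31 ± 0.09, both without overlap. The fourth lower gene was WDR45B.

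Of 18 measured organelle and cargo receptors outside the 41, 2 were lower and 1 higher, around a median of 0.01. The mitophagy receptor BNIP3 had −0.56 ± 0.13 (10.81 and 10.68 against 10.06 and 10.31), and its relative BNIP3L had −0.16 ± 0.13 with overlapping arrays. RETREG1, a receptor for autophagy of the endoplasmic reticulum, measured 6.36 and 6.62 against 6.01 and 5.77, a difference of −0.60 ± 0.14 without overlap (unadjusted p = 0.00684, adjusted p = 0.482), while RETREG2 and RETREG3 had 0.25 ± 0.13 and 0.14 ± 0.11. PHB2, an inner mitochondrial membrane receptor, had 0.29 ± 0.10 and the mitophagy kinase PINK1 0.28 ± 0.14. PINK1 ran from 0.13 without GSK621 replicate 2 to 0.44 without GSK621 replicate 1. Single arrays also decided the values of RETREG2 (0.10 without GSK621 replicate 1), RETREG3 (0.05 without replicate 1 of rapamycin then GSK621) and BNIP3L (−0.05 without that same array, −0.06 without GSK621 replicate 1). BNIP3 is also a gene induced by low oxygen, and BNIP3 and RETREG1 are the 2 lowest of this list.

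The 15 genes of autophagosome fusion with the lysosome had 13 higher values and 2 lower, with a median of 0.09, and 0 had an unadjusted p under 0.05. Over all genes 51.2% were higher, as were 53.7% of genes above the median level, where 14 of the 15 lie. LAMP2 and VPS39, counted as higher, had 0.00 ± 0.09 each. Arrays did not overlap for 6 higher and 2 lower genes of the 15, against 20.5% and 18.9% of all genes. VPS33A and VPS41, subunits of the tethering complex HOPS, had 0.23 ± 0.10 and 0.18 ± 0.09, both without overlap, PLEKHM1 had 0.19 ± 0.12 and VPS11 0.17 ± 0.12. Without replicate 1 of rapamycin then GSK621, PLEKHM1 came to 0.09 and VPS11 to 0.05, and without GSK621 replicate 2 PLEKHM1 came to 0.12. In the list of TFEB control 1 gene was higher and 1 lower of 11 measured. MCOLN1, the lysosomal calcium channel, measured 7.04 and 7.07 against 7.42 and 7.35, a difference of 0.34 ± 0.09 without overlap (unadjusted p = 0.0141, adjusted p = 0.542). RRAGD, a GTPase of amino acid sensing, had −0.53 ± 0.20, which came to −0.26 without replicate 2 of rapamycin then GSK621, and RRAGA had −0.25 ± 0.11 and FNIP1 −0.16 ± 0.10, which came to −0.15 and −0.10 without GSK621 replicate 1. Of 22 measured lysosome genes of the CLEAR network, 17 were higher and 5 lower, with a median of 0.10. Among them 3 had higher values at an unadjusted p under 0.05, namely MCOLN1, the protective protein CTSA (0.30 ± 0.09) and the glycogen-degrading enzyme GAA (0.29 ± 0.11). The proton pump subunit ATP6V1A, at −0.40 ± 0.13, was the 1 with a lower value. GAA came to 0.19 without GSK621 replicate 1, and ATP6V1A to −0.28 without replicate 2 of rapamycin then GSK621. MCOLN1 and CTSA stayed at 0.30 or above whichever array was left out.

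**Figure D4:**
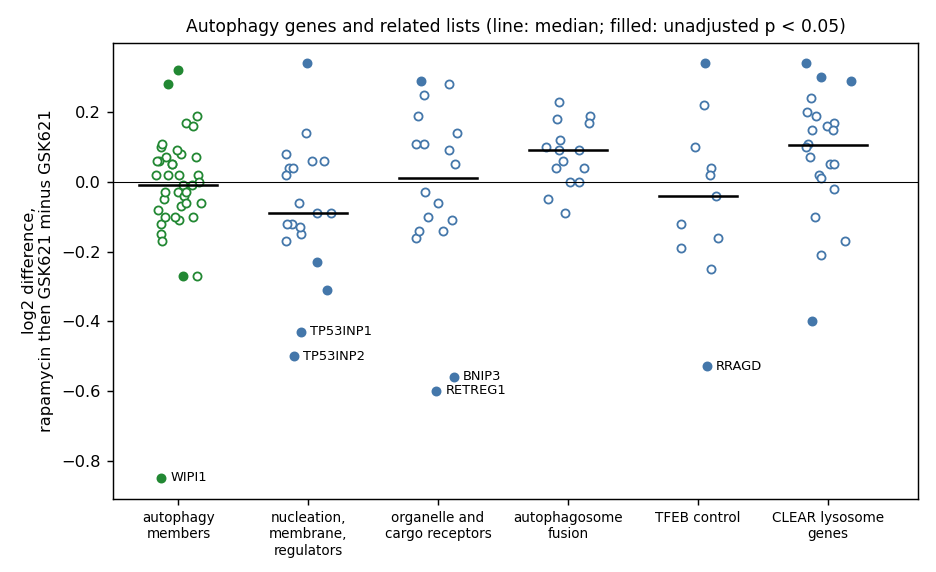
Log2 difference (vertical axis) of each gene of the 41 autophagy genes and of 5 related lists; lines are list medians, filled points had an unadjusted p under 0.05, and the sideways scatter carries no meaning. WIPI1 at −0.85, RETREG1 at −0.60, BNIP3 at −0.56, RRAGD at −0.53 and TP53INP2 at −0.50 are the lowest points, while the medians lie between −0.09 and 0.10.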

How the data were processed

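Total RNA of 4 MOLM-14 cultures was labelled with biotin for Affymetrix whole-transcript arrays, per the labels' protocols. The log2 values were used as deposited by the authors, 1 per gene-level probe set and array. The tools named for that step are Partek and R 2.15.3, per the submitters' processing notes, which give neither a role. How background was corrected, how arrays were normalized and which log base was taken is not given in the sources used here. Deposited values spanned 1.84 to 13.28. A natural log would place the top value at 585694, beyond the 65535 of a 16-bit scanner, so log2 was assumed. Array medians lay between 5.37 and 5.43.

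Probe sets were named through the platform annotation (24244 with 1 symbol, 0 with several, 1338 with none). For 3 genes with over 1 probe set, none of them a member, the one with the highest mean was used. No filter or pseudocount was applied. The contrast of the groups was estimated in R 4.3.3 by limma 3.58.1 (lmFit, then eBayes) with 2 residual and 3.39 prior degrees of freedom. Two-sided p-values were adjusted by Benjamini-Hochberg across 24241 genes. With 2 arrays in each group the smallest two-sided p of an exact permutation test is 0.333, so none was run. Values after ± are standard errors of the limma fit, in which eBayes combines a gene's own variance with that of all genes. Intervals are unadjusted 95% intervals of the same fit. The fit was tested on simulated data. The labels call the cultures biological replicates, and no batch or scan date was used.

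The members and lists were chosen with earlier results of these data known, so no set test and no adjustment over a list alone was made. All members are named, with every array for those with an unadjusted p under 0.05 and for the smallest p in each role, and of each other list up to 4 genes with the smallest p. MAP1LC3B2, BNIP3L, WDR45B, RETREG2, RETREG3, FLT3 and PF4 were added to the text once their values were known. Alternatives were the replicate block, quantile normalization, subtracted array medians, limma with a variance trend and robust estimation, unmoderated variances, genes above the median level, protein-coding genes alone, averaged probe sets and leaving out each array.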

Additional observations from a re-analysis of the deposited data

How the results depend on the processing

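Over all genes, the count with an adjusted p under 0.05 was 0 in the fit reported, 3 with genes above the median level alone, 74 with a variance trend and robust estimation, 1 without moderation and 0 under the other alternatives. WIPI1 kept its direction in all of them, between −0.87 and −0.83, and its adjusted p ran from 0.0207 with the variance trend to 0.809 without replicate 2 of rapamycin then GSK621. The median over the members stayed between −0.04 and 0.01. With the replicate block, members with a lower value at an unadjusted p under 0.05 numbered 1 in place of 2 (ATG12 had 0.0519), as they did with subtracted array medians. At that threshold 1077 of all genes were lower with the block and 905 with subtracted medians, against 1019 in the fit reported. The deviations of same-numbered arrays correlated at 0.0923 over all genes, and no label says that a number marks a shared culture or day. When each array was left out, lower members at that threshold numbered 1 to 2 and higher members 0 to 2, and over all genes 684 to 950 were higher. Members without overlap then numbered 13 to 16 higher and 11 to 20 lower, as fewer arrays overlap less often by construction. The share of all genes without overlap was not counted in these repeats. Whether the member counts differ from that background therefore cannot be told.

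With quantile normalization ATG101 turned to −0.0084 and ATG14 to −0.01. Leaving out each array turned the sign of some members, whose differences in the fit reported ran from −0.04 (UVRAG) to 0.16 (ATG16L2). Their ranges were −0.06 to 0.04 for ATG13, −0.09 to 0.12 for ATG101, −0.12 to 0.12 for ATG14 and −0.10 to 0.02 for UVRAG. For ATG9A the range was −0.04 to 0.08, for WIPI2 −0.10 to 0.07, for VMP1 −0.10 to 0.04 and for ATG10 −0.0081 to 0.12. ATG16L2 ran from −0.01 to 0.33, GABARAP from −0.02 to 0.20 and GABARAPL1 from −0.10 to 0.13. TFE3 ran from −0.05 to 0.0022 and MITF from −0.11 to 0.23. None of the members that turned sign had an unadjusted p under 0.05 in the fit reported. The number of arrays limits what can be seen: 95% intervals of members reach a median of 0.25 to either side, and signal over background is unknown. Values given for genes of the other lists were repeated under the same alternatives, chosen after seeing the data, and kept their direction in each that could be run (PLEKHM1, below the median level, drops out of one). With the replicate block, the unadjusted p of WDR45B was 0.0685.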
